A study of Mus musculus with 6 samples.

Results

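The early response genes described here are 9 genes of 3 families: Egr1, Egr2 and Egr3, which encode zinc finger transcription factors, Nr4a1, Nr4a2 and Nr4a3, which encode orphan nuclear receptors, and the immediate early response genes Ier2, Ier3 and Ier5. They were taken by symbol, whatever their values, from the 55263 genes to which the deposited transcript counts could be assigned. The cells were mouse bone marrow-derived macrophages, which are grown from marrow progenitors in culture. Each of the 3 groups had 2 libraries: control cells (labelled wild type), cells treated with LPS (lipopolysaccharide, a bacterial membrane component that TLR4 senses), and cells treated with both LPS and the agent the labels call HACA. For the treated groups the labels give the treatment in place of a genotype. They name no strain, sex, age, dose or time, and do not spell out HACA. The series title concerns a hyaluronic acid nanomedicine tested in a mouse model of psoriasis.

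Immediate early genes are transcribed within minutes of a stimulus from factors already present in the cell, so that no new protein has to be made first. In macrophages TLR4 reaches them through the ERK and p38 MAP kinases, which act on serum response factor with its ternary complex partners and on CREB family factors, and through NF-kB. Their RNAs are short-lived as a rule, so a level read at a single unknown time after LPS may lie before, at or after the peak.

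Total counts were 12529874 to 15379496 per library. Levels are given as CPM, the count rescaled to a library of fixed size after TMM scaling, which sets libraries to a common level for most genes. Calls rest on edgeR's quasi-likelihood test over 17113 genes, with Benjamini-Hochberg adjusted p under 0.05. The 11 macrophage markers ranged widely, from Lyz2 at 30358 to 47787 CPM and Csf1r at 19.6 to 54.4 CPM to Cd68 at 3.25 to 7.03 CPM, Itgam at 0.193 to 1.82 CPM and Adgre1, which encodes F4/80, at 0.394 to 0.674 CPM. Of the 10 tested, Itgam (−3.13, edgeR adjusted p = 0.0185) and Mertk (−1.69, edgeR adjusted p = 0.00279) were called lower in LPS and none higher. Over all genes tested, 14.3% were called lower and 15.9% higher. Itgam had 29 and 26 counts in control and 2 in each LPS library. How reads shared by transcripts were treated is not given, so a low value need not mean little RNA, here or in the lists below. Of the 5 T and NK cell markers, Cd3e, Cd8a, Ncr1 and Nkg7 were at 0 in all libraries, and the list summed to at most 0.27 CPM. The 5 stromal markers summed to 32.3 to 49.6 CPM in replicate 1 of the groups and to 1.35 to 2.31 CPM in replicate 2. The 7 neutrophil markers ran the other way, at 1.21 to 4.63 CPM in replicate 1 and 7.98 to 15.6 CPM in replicate 2, with S100a9 and Ly6g at 0 throughout. Markers of 2 other cell types moved with LPS: B cell markers summed to 3.15 and 3.76 CPM there and to 8.25 to 13.6 CPM elsewhere, dendritic cell markers to 24.5 and 26.8 CPM there and to 7.90 to 12.0 CPM elsewhere. Their part in the results was not tested.

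The families differed in how much of each gene was held by a single transcript. Ier2, Ier3 and Ier5 each have 1 annotated transcript, and no base of it is shared with another, so the whole transcript of 1522, 1131 and 3276 bases was open to counting. The EGR and NR4A genes have 2 to 7 annotated transcripts that share most of their exons, and the deposited counts lie almost only on transcripts with bases of their own. The bases held by a single transcript made up 32.3% of the exonic bases of Egr1, 12.1% of Egr2, 10.6% of Egr3, 29.4% of Nr4a1, 7.79% of Nr4a2 and 4.56% of Nr4a3. Summed over the 6 libraries, Ier5 had 21903 counts, Ier3 had 8848 and Ier2 had 6491. By contrast Nr4a1 had 146, Egr2 119, Egr1 17, Egr3 14, Nr4a3 9 and Nr4a2 8. The counts give no position within a transcript. Those of EGR and NR4A genes may come mostly from part of each gene's exons, and they are no measure of its full level.

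**Figure D1:**
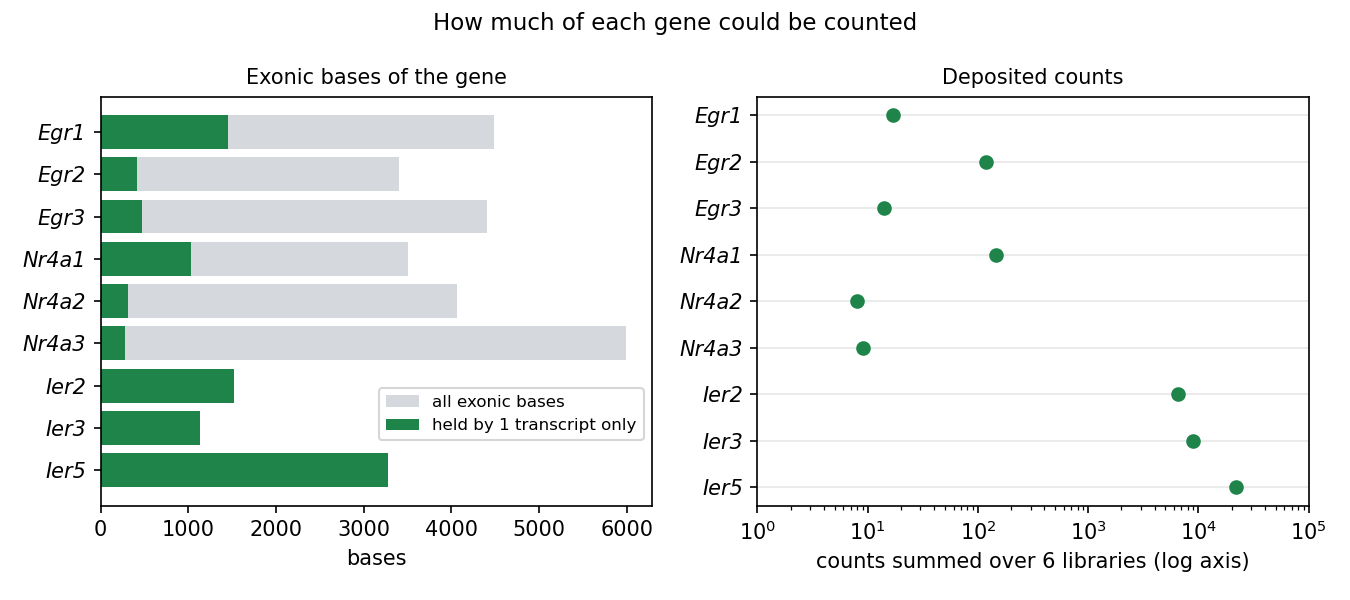
Left, all exonic bases of each gene (grey) and the bases held by 1 transcript only (green). Right, deposited counts summed over 6 libraries on a log axis; the IER genes, countable over their whole length, hold 6491 to 21903 counts and the other genes 8 to 146.

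In the EGR and NR4A genes, the bases held by 1 transcript were mostly outside the coding sequence. All 119 Egr2 counts were assigned to Egr2-203, a coding transcript whose own 221 bases (chromosome 10, 67538683 to 67538903, GRCm38) are annotated as its 5′ UTR. The same bases are intronic in 5 other Egr2 transcripts, among them Egr2-201 with the longest coding sequence. Egr2-201 has 85 bases of its own and no count. Nr4a1 counts were spread over a retained-intron transcript, Nr4a1-204 (50 counts), and the coding transcripts Nr4a1-202 (46), Nr4a1-203 (40) and Nr4a1-201 (10). The own bases of Nr4a1-204 and Nr4a1-203 are intronic in Nr4a1-201 and Nr4a1-202, and Nr4a1-201 has no base of its own. For Nr4a2 the 8 counts fell on 2 noncoding transcripts, and none of its coding transcripts has a base of its own. Spliced and unspliced RNA could not be told apart in any of these counts.

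The promoters of Egr2, Nr4a1, Ier3 and Ier5 are shown as those of the tested genes that the RefSeq table (GRCm38.p6) holds, since the families are known for different response elements. Of the 9 genes, 6 had windows that were searched. Egr1 was set aside before the search, so its absence here does not mean that the table lacks it. Each sequence is the 250 bases before the start site, 5′ to 3′ on the gene's strand, and capitals mark the motifs searched on both strands. These were the CArG box bound by serum response factor, the cyclic AMP response element TGACGTCA and its shorter form TGACG, which lies within the full element and reads CGTCA on the other strand, the EGR site GCGNGGGCG, the NR4A monomer site AAAGGTCA, the AP-1 sites TGACTCA and TGAGTCA, the NF-kB site, and the TATA boxes TATAAA and TATATA.
Egr2 (chr10:67537619-67537868, plus strand): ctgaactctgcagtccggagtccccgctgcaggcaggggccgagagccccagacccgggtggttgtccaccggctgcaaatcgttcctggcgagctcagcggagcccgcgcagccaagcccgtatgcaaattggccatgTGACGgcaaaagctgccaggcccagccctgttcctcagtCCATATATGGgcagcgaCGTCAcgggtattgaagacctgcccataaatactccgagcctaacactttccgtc
Nr4a1 (chr15:101266596-101266845, plus strand): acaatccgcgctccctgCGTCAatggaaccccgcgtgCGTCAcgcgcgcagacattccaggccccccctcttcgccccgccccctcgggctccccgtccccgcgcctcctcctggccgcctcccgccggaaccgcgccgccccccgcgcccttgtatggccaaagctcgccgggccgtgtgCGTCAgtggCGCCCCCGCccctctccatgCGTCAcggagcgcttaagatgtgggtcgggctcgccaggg
Ier3 (chr17:35821463-35821712, plus strand): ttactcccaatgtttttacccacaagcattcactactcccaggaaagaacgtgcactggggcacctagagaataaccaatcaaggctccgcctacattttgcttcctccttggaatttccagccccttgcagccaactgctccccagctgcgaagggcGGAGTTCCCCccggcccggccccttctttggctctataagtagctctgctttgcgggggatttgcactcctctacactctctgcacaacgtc
Ier5 (chr1:155099637-155099886, minus strand): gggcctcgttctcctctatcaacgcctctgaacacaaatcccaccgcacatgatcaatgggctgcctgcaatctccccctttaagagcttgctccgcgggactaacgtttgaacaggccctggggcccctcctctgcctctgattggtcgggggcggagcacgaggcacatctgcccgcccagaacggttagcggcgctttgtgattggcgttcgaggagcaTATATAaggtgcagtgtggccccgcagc

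The table holds 5 Egr2 windows, of which the one at the start site of Egr2-201 is shown. Of the other 4, the window furthest upstream held no motif searched, the next held a different CArG box and no short form, and the remaining 2 overlap the one shown and hold its motifs. The window shown held a CArG box 72 to 63 bases before the start and 2 short forms of the cyclic AMP response element. Among 32851 promoter windows of the same length, 1.47% held a CArG box and 17.8% the short form. The start of Egr2-203, on which the counts lay, is downstream of this window. Nr4a1 held 4 short forms and an EGR site, which 4.7% of windows held. The last 29 bases of the Ier3 window lie past the GENCODE start of Ier3-201. In that window the match was an NF-kB site 92 to 83 bases before the start, which 3.9% of windows held, and in the Ier5 window it was a TATA box 28 to 23 bases before the start, which 15.6% held. The full cyclic AMP response element was in 1.55% of all windows, the NR4A site in 1.34% and the AP-1 site in 4.46%, and none of these was in the 4 windows shown. A match is a string of letters, and binding was not measured.

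LPS against control gives the response to LPS alone, and the 3 IER genes were 2.87 to 5.77-fold higher in LPS. Ier2 encodes a nuclear protein that acts in transcription (chromosome 8, 84661331 to 84662852, minus strand). It stood at 39.9 and 32.0 CPM in the control libraries and at 123.6 and 291 CPM in the LPS libraries, or 35.95 ± 5.58 against 207.3 ± 118 CPM (SD, n = 2). Both LPS libraries lay above both controls, and the second LPS library was far above the first. The log2 fold change was 2.53 ± 0.40 (SE, edgeR adjusted p = 0.00306), and Ier2 was called in each fit that left out 1 library. In bulk RNA, a change in the number of cells expressing a gene and a change in RNA per cell cannot be told apart.

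Ier5, whose product works with the phosphatase PP2A and raises the activity of the heat shock factor HSF1 (chromosome 1, 155096361 to 155099636), had the highest CPM of the 9 genes. It was at 148.7 and 140.5 CPM in control and at 352 and 734.6 CPM in LPS, so the groups did not overlap. The log2 fold change was 1.91 ± 0.35 (edgeR adjusted p = 0.00531), and the call was lost without control replicate 2 (adjusted p = 0.056). Ier3, also known as IEX-1, is an NF-kB-responsive regulator of survival under stress (chromosome 17, 35821684 to 35822923). It rose from 69.0 and 81.4 CPM to 133.7 and 298.5 CPM, a log2 fold change of 1.52 ± 0.38 (edgeR adjusted p = 0.0199). That call was lost without control replicate 1 or 2 or LPS replicate 2 (edgeR adjusted p = 0.135, 0.096 and 0.0549) and when libraries were scaled by their totals (0.83 in place of 1.52, adjusted p = 0.0858).

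Of the EGR genes, Egr2 was called. Its product is a zinc finger factor with a role in macrophage differentiation. It had 9 and 11 counts in control and 29 and 38 in LPS, or 0.565 and 0.728 against 2.86 and 3.66 CPM. The 2 groups did not overlap, and the log2 fold change was 2.32 ± 0.62 (edgeR adjusted p = 0.0253), read over the 221 bases described above. Without control replicate 1 or 2 or LPS replicate 2 the adjusted p was 0.151, 0.115 and 0.0672, and with library totals it was 0.0658. Egr1, the best-known member of the family and a sensor of ERK activity, had 2 and 1 control counts, 2 and 5 LPS counts and 3 and 4 LPS+HACA counts. Those counts came from Egr1-201, which has 1448 bases of its own, nearly all in its 5′ UTR. The ratio of LPS to control was 3.53, with a 95% interval of 0.806 to 21.2 for counting error alone, so no difference was detectable with so few counts. For Egr3, a close relative of Egr2, the 4 control counts and 5 LPS counts gave a ratio of 1.89 (interval 0.407 to 9.53).

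The NR4A genes gave no call. Nr4a1, whose product Nur77 restrains inflammatory gene expression in macrophages, was at 1.88 and 2.71 CPM in control and at 0.493 and 4.05 CPM in LPS. The LPS libraries thus lay on either side of the controls, with 5 and 42 counts. The log2 fold change was −0.01 ± 0.81 (edgeR adjusted p = 0.993), with a 95% interval from −1.90 to 1.87 that leaves room for a change in either direction. Nr4a3, which encodes NOR-1, had 0 counts in both control libraries, 1 and 8 in LPS and 0 in both LPS+HACA libraries. The exact 95% interval of the LPS to control ratio, for counting error only, began at 2.99, but 8 of the 9 LPS counts came from LPS replicate 2, and with no filter on low counts Nr4a3 was not called (edgeR adjusted p = 0.128). Nr4a2, which encodes Nurr1, had 1 count in control and 3 in LPS, both within the 3-count floor.

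In all, 4 of the 9 genes were called higher in LPS, none lower, 1 (Nr4a1) was tested and not called, and 4 (Egr1, Egr3, Nr4a2 and Nr4a3) had too few counts to pass the filter. Over all genes tested, 15.9% were called higher and 14.3% lower, so that 52.6% of calls were higher, or 21.7% with library totals. Of the 5 tested genes, 4 had both LPS libraries above both controls, Nr4a1 being the exception, and none had both below. Over all genes tested, the groups of 31.4% did not overlap upward and of 35.3% downward. The median log2 fold change of the 5 tested genes was 1.91, beside −0.05 over all genes. Scaling by library totals moved the median of all genes to −0.69 and that of the 5 genes to 1.22, and left Ier2 and Ier5 called. With no filter on low counts the same 4 genes, Egr2, Ier2, Ier3 and Ier5, were called.

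**Figure D2:**
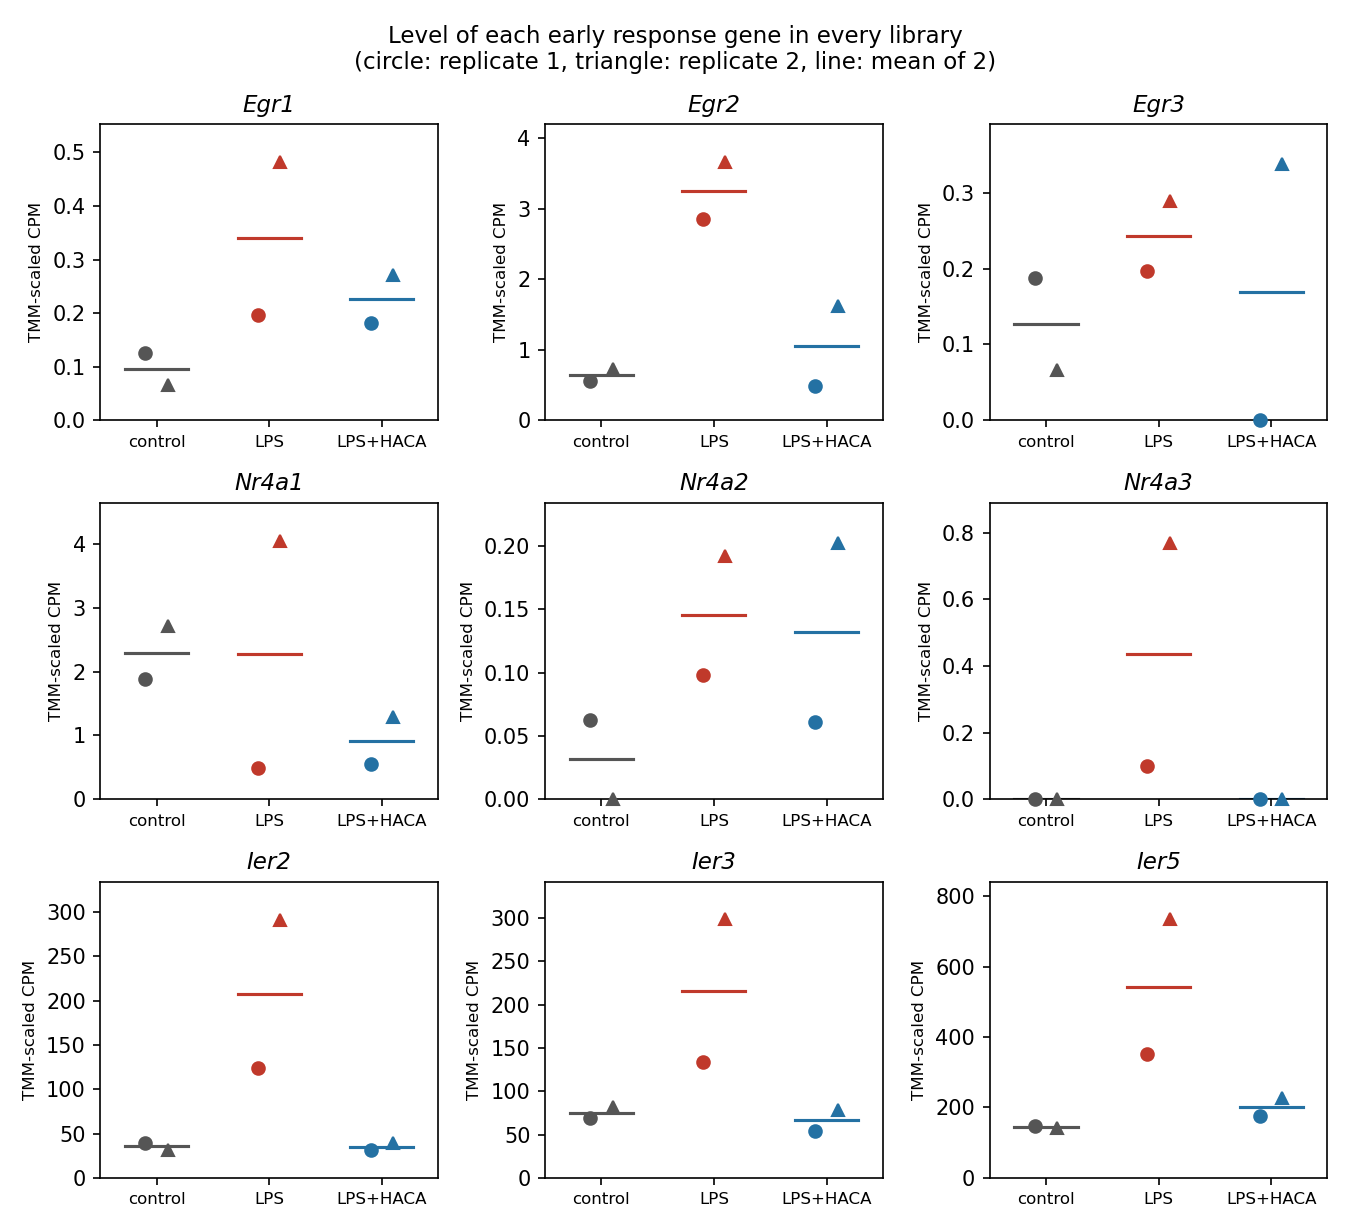
TMM-scaled CPM of each gene (linear axis from 0, a separate scale in each panel) in control, LPS and LPS+HACA libraries; circles are replicate 1, triangles replicate 2 and lines the mean of 2. Ier2, Ier3, Ier5 and Egr2 are above control in both LPS libraries, while the LPS libraries of Nr4a1 lie on either side of the controls.

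The 2 LPS libraries stood apart for the IER genes and Nr4a1, and less so for Egr2. Replicate 2 was above replicate 1 by 1.23 on the log2 scale for Ier2, 1.16 for Ier3 and 1.06 for Ier5. Of 8338 genes with a mean of at least 5 CPM in LPS, 3.09%, 3.86% and 5.29% lay as far up or further, and the median gene differed by 0.04. The gap was 2.72 for Nr4a1 (0.012% of those genes as far up or further) and 0.34 for Egr2 (30.7%), both below 5 CPM. In control these differences ran from −0.32 for Ier2 to 0.50 for Nr4a1, and in LPS+HACA from 0.31 for Ier2 to 1.49 for Egr2. Of 31 other immediate early genes, 27 were higher in replicate 2 in LPS (median difference 0.68), 28 in LPS+HACA (0.33) and 19 in control (0.11). Over genes at a mean of 5 CPM or more in the group, the median difference was 0.04, 0.03 and 4e-04. The neutrophil markers were higher and the stromal markers lower in LPS replicate 2, as given above, and their part in the result was not tested. Without LPS replicate 2, the log2 fold changes against control were 1.78 for Ier2 (edgeR adjusted p = 0.00151) and 1.29 for Ier5 (adjusted p = 0.00424), both still called, and 0.83 for Ier3 (adjusted p = 0.0549) and 2.13 for Egr2 (adjusted p = 0.0672), both no longer called.

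Levels of different genes were compared per length, with the authors' FPKM values of the 3 IER transcripts. In control, Ier3 was highest at 60.8 and 70.1 FPKM, Ier5 followed at 45.2 and 41.8 FPKM, and Ier2 was lowest at 26.1 and 20.5 FPKM. These ranges did not overlap. In LPS the order within each library was the same, but the ranges overlapped: 118.2 and 251.6 FPKM for Ier3, 107.5 and 213.8 FPKM for Ier5, and 81.2 and 182 FPKM for Ier2. In LPS+HACA, Ier3 (47.5 and 64.6 FPKM) and Ier5 (52.5 and 63.9 FPKM) overlapped, and Ier2 (20.3 and 23.8 FPKM) was below both. Per kilobase of bases held by 1 transcript, Egr1 stood at 0.0457 to 0.333 CPM over the 6 libraries and Ier2 at 20.7 to 191.2 CPM.

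LPS+HACA against LPS compares LPS-treated cells with and without HACA, and the 3 IER genes were lower with HACA. No group had HACA alone, so its effect on these genes without LPS was not measured. Ier2 was at 31.5 and 39.0 CPM in LPS+HACA, against 123.6 and 291 CPM in LPS, and the groups did not overlap. Its log2 fold change was −2.56 ± 0.40 (edgeR adjusted p = 0.00919), a level 5.88-fold lower. The call was lost without LPS+HACA replicate 1 (adjusted p = 0.0642) and held with library totals (−1.86, adjusted p = 0.0138). Ier3 fell to 54.5 and 78.7 CPM (−1.70 ± 0.38, edgeR adjusted p = 0.0278) and Ier5 to 174.6 and 225.5 CPM (−1.44 ± 0.34, edgeR adjusted p = 0.0316), again with no overlap with LPS. The calls of Ier3 and Ier5 were less firm than that of Ier2. Leaving out any library other than LPS replicate 1 ended both calls, with adjusted p of 0.0513 to 0.157 for Ier3 and 0.0562 to 0.172 for Ier5. They were also lost with library totals (adjusted p = 0.0653 and 0.0932) and when only LPS and LPS+HACA libraries were fitted (adjusted p = 0.0791 and 0.0898).

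Egr2 had 8 and 24 counts in LPS+HACA, or 0.486 and 1.62 CPM, both below the LPS libraries. Its log2 fold change was −1.63 ± 0.59, and it did not pass (edgeR adjusted p = 0.107). Nr4a1 had 9 and 19 counts, or 0.547 and 1.28 CPM, within the wide range of the LPS libraries (−1.31 ± 0.87, edgeR adjusted p = 0.343). This value turned to 0.87 without LPS replicate 2. The 7 Egr1 counts in LPS+HACA matched the 7 in LPS, a ratio of 0.657 after scaling (95% interval 0.197 to 2.20), and Egr3 had 5 in each (0.151 to 2.85). Of the 9 genes, 3 were called lower, none higher, and 2 were tested and not called, where 7.67% of all genes were called lower and 5.74% higher, so that 42.8% of calls were higher, or 87.0% with library totals. Of the 5 tested genes, 4 (Egr2, Ier2, Ier3 and Ier5) had both LPS+HACA libraries below both LPS libraries and none had both above, where 27.3% of all genes tested did not overlap downward and 30.3% upward.

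Against control, none of the 5 tested genes was called in LPS+HACA, where 0.894% of all genes were called higher and 0.257% lower. The comparisons of LPS with control and of LPS+HACA with LPS share the LPS libraries, and LPS+HACA with control does not use those libraries in its fold change. The Ier2 levels overlapped those of control (−0.03 ± 0.38, 95% interval −0.91 to 0.85), as did those of Ier3 (−0.17 ± 0.37, interval −1.04 to 0.69). Ier5 was above control in both libraries, at 174.6 and 225.5 against 148.7 and 140.5 CPM, with a log2 fold change of 0.47 ± 0.34 (interval −0.30 to 1.24, edgeR adjusted p = 0.71). Over all genes tested, 23.4% did not overlap upward. Egr2 stood at 0.69 ± 0.64 and overlapped control. Nr4a1 was below control in both libraries, at −1.33 ± 0.85 (interval −3.29 to 0.63, edgeR adjusted p = 0.659), where 23.1% of tested genes did not overlap downward. The intervals are wide enough that equal levels in LPS+HACA and control were not shown for any of these genes.

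**Figure D3:**
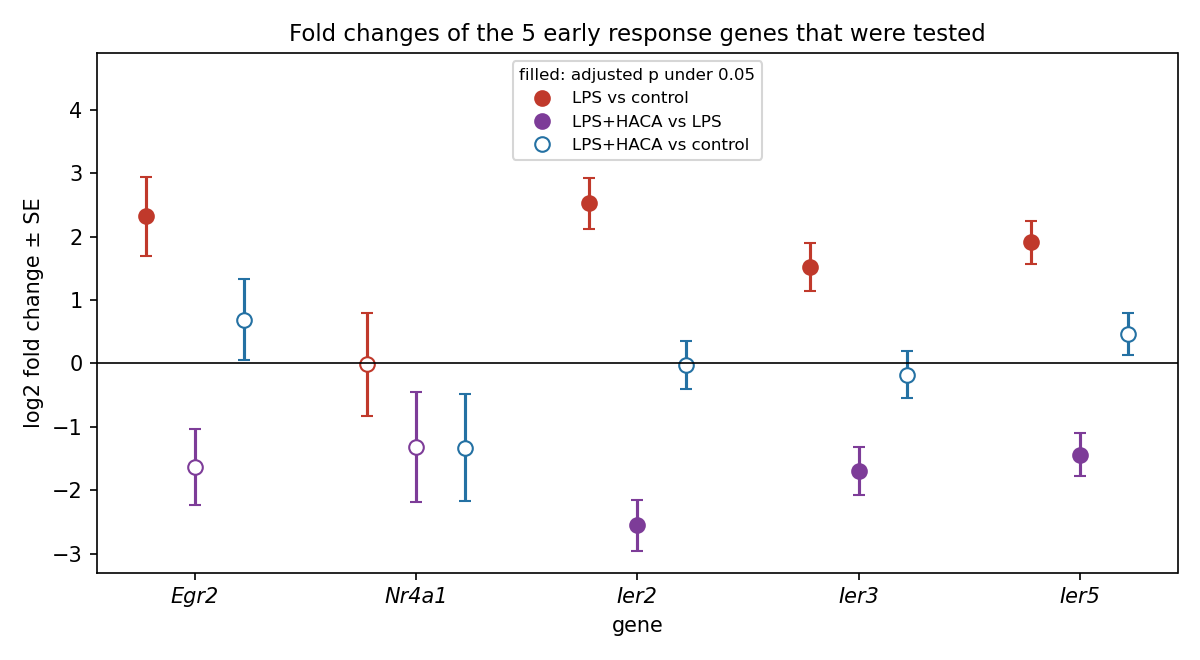
Log2 fold change ± SE from the edgeR fit for the 5 tested genes in 3 comparisons; filled points have an adjusted p under 0.05. Egr2 and the IER genes are above 0 for LPS vs control, the IER genes are filled and below 0 for LPS+HACA vs LPS, and all points for LPS+HACA vs control are open.

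By the smallest Euclidean distance between log2 CPM profiles centred over the 6 libraries, among 8697 genes at a mean of 5 CPM or more, the profile most like that of Ier5 was Gmeb2 (distance 0.16, median over genes 2.05). Gmeb2 had control levels of 25.0 and 24.3 CPM, LPS levels of 67.0 and 129 CPM, and LPS+HACA levels of 29.2 and 37.4 CPM. The nearest to Ier2 was Frmd6 (distance 0.47), to Ier3 the unclassified transcript gene Gm45838 (0.32), to Egr2 Spred2 (0.41) and to Nr4a1 Sh2b2 (0.60). These genes were picked for their likeness, and their profiles follow from that choice.

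Partners of the families did not share a single pattern. Nab1 and Nab2 encode corepressors that bind EGR proteins. Nab1 rose in LPS from 4.89 and 4.83 to 9.16 and 10.02 CPM (0.98 ± 0.31, edgeR adjusted p = 0.0441). That call was lost with library totals (adjusted p = 0.401), with no filter, with 2 groups fitted and without any 1 library other than LPS replicate 1 (adjusted p up to 0.203). Nab2 stood at 4.33 and 9.72 CPM in control, 9.56 and 19.8 CPM with LPS and 8.02 and 14.2 CPM in LPS+HACA, with overlap throughout, and was not called in LPS (1.07 ± 0.51, edgeR adjusted p = 0.15) or between LPS+HACA and LPS (−0.41 ± 0.50, adjusted p = 0.621). Rxra, which encodes the retinoid receptor that pairs with Nr4a1 and Nr4a2 proteins, fell from 102.3 and 116.5 CPM to 11.4 and 12.3 CPM in LPS (−3.20 ± 0.25, edgeR adjusted p = 0.00021). Its level was higher in LPS+HACA than in LPS, at 34.6 and 45.8 CPM (1.76 ± 0.24, edgeR adjusted p = 0.00668). Ier5l, the paralog of Ier5, went opposite to Ier5 in LPS, from 8.03 and 10.6 CPM to 0.197 and 1.44 CPM (−3.49 ± 0.66, edgeR adjusted p = 0.00651). Of the 5 tested relatives and corepressors, 1 was higher and 2 lower in LPS (median −1.06, or −1.73 with library totals), beside 15.9% and 14.3% of all genes. In LPS+HACA against LPS 1 was higher and none lower (median 0.33, or 1.0004 with library totals), beside 5.74% and 7.67%. With library totals the 1 higher gene became 0 in LPS against control and 2 in LPS+HACA against LPS. With the replicate block it became 2 in each of these comparisons. With no filter 1 gene was called higher in LPS against control, a gene other than Nab1. In LPS+HACA against LPS the 1 higher gene became 2 with no filter or with DESeq2. Besides Nab1, Nab2 was the only tested gene of this list with a positive fold change in LPS in the main fit.

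Among 12 tested factors that drive early genes, 3 were called higher and 2 lower in LPS, beside 15.9% and 14.3% of all genes. Their median was 0.14, and −0.50 with library totals. The 3 became 0 with library totals or without either control library, and the 2 became 5 with library totals and 1 without either control library. Srf, which encodes serum response factor, stood at 37.3 and 33.4 CPM without treatment, 76.9 and 64.0 CPM with LPS and 38.9 and 35.4 CPM in LPS+HACA. It rose in LPS (0.995 ± 0.22, edgeR adjusted p = 0.0125) and fell in LPS+HACA against LPS (−0.92 ± 0.22, edgeR adjusted p = 0.0331). The Srf rise was lost with library totals (adjusted p = 0.291) and without either control library (0.0842 and 0.116), and the fall with library totals (0.427), with 2 groups fitted and without either control or either LPS+HACA library (0.088 to 0.186). Atf1, a CREB relative, rose in LPS (1.06 ± 0.24, edgeR adjusted p = 0.0135), a call lost with library totals (0.191) and without either control library (0.0898 and 0.115). Elk3, a ternary complex partner that can repress, fell in LPS (−1.96 ± 0.24, edgeR adjusted p = 0.00117). Mrtfa, a coactivator of serum response factor, fell as well (−0.98 ± 0.26, edgeR adjusted p = 0.0235), a call lost without either control library (0.149 and 0.101). In LPS+HACA against LPS, beside 5.74% of all genes higher and 7.67% lower, 1 of the 12 was higher (Elk3, 1.01 ± 0.24, edgeR adjusted p = 0.0324) and 1 lower (Srf). The Elk3 call there held among the single-library omissions only without LPS replicate 2.

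Of 13 kinase genes of the ERK and p38 routes, 4 were higher and 1 lower in LPS, beside 15.9% and 14.3% of all genes. In LPS+HACA against LPS 1 was higher and 2 lower, beside 5.74% and 7.67% (medians 0.59 and −0.55, but −0.08 and 0.12 with library totals). The 4 became 2 without control replicate 1, and the 2 became 0 without LPS+HACA replicate 1 and 1 without LPS+HACA replicate 2 or with library totals. Mapkapk2, which encodes the p38 target MK2, rose from 534.7 and 597.2 CPM to 4056 and 5039 CPM in LPS (3.01 ± 0.21, edgeR adjusted p = 0.000159). Map2k1, which encodes MEK1, rose from 121.4 and 113.4 to 265.2 and 318.3 CPM (1.31 ± 0.20, edgeR adjusted p = 0.00286). Both were lower in LPS+HACA than in LPS, Mapkapk2 by −1.42 ± 0.20 (edgeR adjusted p = 0.00699) and Map2k1 by −1.26 ± 0.20 (edgeR adjusted p = 0.0104). Without LPS+HACA replicate 1 neither call held (0.0672 and 0.0759), and that of Map2k1 was also lost without LPS+HACA replicate 2 (0.0754) and with library totals (0.0627). Mapk14, which encodes p38 alpha, stood at 19.8 and 21.8 CPM without treatment, 10.5 and 9.34 CPM with LPS and 19.7 and 23.0 CPM in LPS+HACA (edgeR adjusted p = 0.0144 for the fall and 0.0266 for the higher level with HACA). The fall was lost without either control library, and the other call held among the single-library omissions only without LPS replicate 1.

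Genes of HSF1 and the heat shock response were set beside Ier5, and 6 of 12 tested were higher and 1 lower in LPS, beside 15.9% and 14.3% of all genes (median 0.74, but 0.08 with library totals). The 6 became 2 without control replicate 1, 1 without control replicate 2, 3 without LPS replicate 2 and 2 with library totals. Hspa1a and Hspa1b encode inducible HSP70 chaperones and are near-identical, so that reads may be shared and their values are uncertain. Hspa1a rose by 3.61 ± 0.55 (edgeR adjusted p = 0.00335) and Hspa1b by 3.81 ± 0.64 (edgeR adjusted p = 0.00628), the latter lost without control replicate 2 or either LPS library (0.0523 to 0.0843). Hsf1 itself stood at 0.70 ± 0.42 in LPS (edgeR adjusted p = 0.246). In LPS+HACA against LPS, 1 of the 12 was lower and none higher, beside 7.67% and 5.74% of all genes. The 1 call was Hsp90aa1, which encodes an inducible HSP90 chaperone (−1.67 ± 0.38, edgeR adjusted p = 0.0286). It was lost with library totals (0.0817), with 2 groups fitted and without any 1 library other than LPS replicate 1. DESeq2 and the replicate block each called 6 genes of the list lower, and over all genes the 1312 lower became 1799 and 2356.

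Other immediate early genes formed the longest list, with 31 of 36 tested. In LPS 22 were called higher and 2 lower, beside 15.9% and 14.3% of all genes, and the median log2 fold change was 2.08 (1.42 with library totals). Ptgs2, which encodes cyclooxygenase 2, stood at 2.07 and 2.71 CPM in control and at 6881 and 7729 CPM in LPS (11.57 ± 0.33, edgeR adjusted p = 8.89e-06). Dusp2, an ERK phosphatase gene, rose by 5.79 ± 0.51 (edgeR adjusted p = 0.000351). Fos, which encodes an AP-1 subunit and is often induced together with Egr1, fell from 110.2 and 155 CPM to 33.5 and 27.1 CPM (−2.13 ± 0.26, edgeR adjusted p = 0.000985). Klf10, a zinc finger gene, fell by 1.23 on the log2 scale (SE 0.32, edgeR adjusted p = 0.0225), a call lost without either control library or LPS replicate 2 (0.0589 to 0.134).

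In LPS+HACA against LPS, 20 of the 31 were lower and 1 higher, beside 7.67% and 5.74% of all genes (median −1.62, and −1.01 with library totals). Ptgs2 was at 51.4 and 62.1 CPM (−7.01 ± 0.27, edgeR adjusted p = 0.000104) and Dusp2 at 26.4 and 45.0 CPM (−3.61 ± 0.46, edgeR adjusted p = 0.00569). The 1 gene higher was Fos, at 83.5 and 88.2 CPM (edgeR adjusted p = 0.0111), a call lost without either LPS+HACA library (0.0552 and 0.0535). The 20 became 4 without LPS+HACA replicate 1 and 12 without LPS+HACA replicate 2 or with 2 groups fitted. Against control, 0.894% of all genes were called higher in LPS+HACA and 0.257% lower. The 153 genes called higher became 661 with no filter, 628 with the replicate block and 466 with DESeq2. Of the 31 early genes, 3 were called higher (Gadd45b, Pim1 and Ptgs2, named after their values were seen) and none lower. Those 3 became 0 without control replicate 1 and 1 without control replicate 2 or either LPS+HACA library, 5 without LPS replicate 2, 9 with no filter, 11 with the replicate block and 5 with DESeq2.

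**Figure D4:**
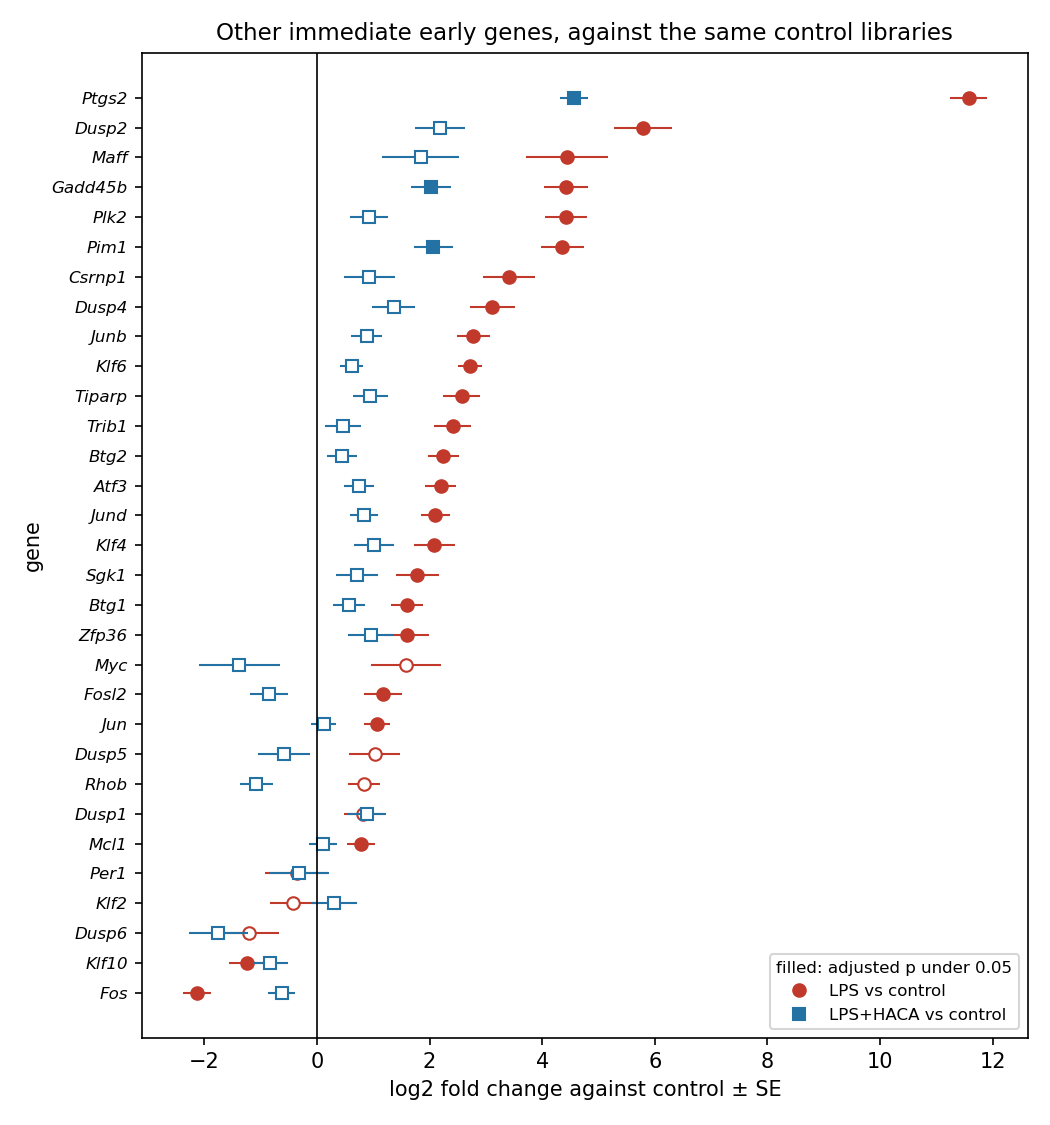
Log2 fold change ± SE against the same control libraries for 31 other immediate early genes, in LPS (red circles) and in LPS+HACA (blue squares); filled points have an adjusted p under 0.05. In LPS 24 points are filled, 22 to the right and 2 to the left of 0, and in LPS+HACA 3 are filled, all to the right.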

How the data were processed

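Whole-number read counts for each transcript were deposited by the authors, as raw counts per the file headers. FPKM values made from them by the authors were deposited too. Dividing each count by transcript length and by 1 effective library size per library matched the deposited FPKM in 99.8% of the transcripts that had 50 counts or more (tolerance 0.1%). Per the labels' protocols, poly-A RNA from Trizol extracts went into TruSeq libraries. Builds GRCm38 and GRCh38 appear in the submitters' processing notes, with STAR 2.5.4b, edgeR 3.28.1, DESeq2 1.26.0, limma, CASAVA and Trim Galore, and with no roles. Not given in the sources used here are the counting program, its strand setting and how it treated reads shared by transcripts. Genes of the type misc_RNA held 24.3% to 29.2% of counts.

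Counts were summed per gene with GENCODE vM21 (GRCm38). Of 142647 transcripts 141524 matched, and the 1123 others, at most 0.115% of a library, were left out. One edgeR 4.0.16 model (filterByExpr, TMM, robust quasi-likelihood, group as the only term, 3 residual degrees of freedom) was fitted in R 4.3.3 to the 6 libraries, with Benjamini-Hochberg adjustment over 17113 genes. The procedure was tested on simulated data. The SE of a log2 fold change is its size over the square root of F, and intervals of count ratios are exact 95% binomial intervals for counting error only. FPKM was used for description only. The alternatives were library totals, DESeq2 1.42.0, no filter, fits of 2 groups, a replicate block, no misc_RNA genes, the transcript with most counts per gene, and leaving out each library.

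The genes and lists were chosen with earlier results of these data known. From each pathway list up to 2 called genes per direction and comparison are named, those of largest change with no overlap and at least 5 CPM in the higher group, together with Nab2, Srf, Fos and 1 nearest profile per tested gene. Nothing in the labels ties the replicates to separate cultures or animals. Where they share one, the p-values reflect technical spread between these libraries only.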

Additional observations from a re-analysis of the deposited data

How the results depend on the processing

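Genes higher and lower in LPS vs control numbered 2715 and 2442, and 1417 and 5111 with library totals, and 1190 to 3024 higher and 916 to 2817 lower over the fits that left out a library. For LPS+HACA vs LPS they numbered 983 and 1312. With library totals they were 3501 and 522, with 2 groups fitted 252 and 509, with the replicate block 1955 and 2356, with no filter 1845 higher, and over the fits that left out a library 152 to 1617 higher and 216 to 1793 lower. For LPS+HACA vs control they numbered 153 and 44. With no filter they were 661 and 250, with 2 groups 324 and 159, with the block 628 and 307, with DESeq2 466 and 200, with library totals 24 lower, and over the fits that left out a library 0 to 420 higher and 0 to 186 lower. Of the early response genes, the 4 higher in LPS became 2 with library totals and 1 to 4 over the fits that left out a library. The 3 lower with HACA became 1 with library totals or with 2 groups, and 0 to 4 over the fits that left out a library. The sign turned for Nr4a1 in LPS vs control with DESeq2 (0.0076) and over the fits that left out a library (−2.20 to 0.82), and in LPS+HACA vs LPS over those fits (−2.15 to 0.87). It turned for Nab2 in LPS+HACA vs LPS with library totals (0.27) and over those fits (−0.88 to 0.21). In LPS+HACA vs control it turned over those fits for Egr2 (−0.40 to 1.34), Ier2 (−0.19 to 0.14) and Ier3 (−0.46 to 0.087). None of these reversed values passed the test. The cause of each change was not tested.

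The replicate numbers are shared between groups, but the labels do not say that a number marks a shared animal, culture or day. Same-numbered libraries deviated together from their group means (r = 0.31 for control and LPS, 0.51 for control and LPS+HACA, 0.50 for LPS and LPS+HACA, across genes), which with 2 numbers is a hint from the data only. With the replicate block Ier2, Ier3, Ier5 and Egr2 were called in LPS vs control, and 4 early response genes were lower in LPS+HACA vs LPS, with Egr2 added (−1.73, adjusted p = 0.0338). Leaving out 1 library leaves a group with 1 sample, which is then assumed to vary like the other groups. Low counts limit Egr1, Egr3, Nr4a2 and Nr4a3, with 8 to 17 in all libraries. Whether these reflect low expression, depth or reads shared by transcripts was not tested.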
